A study of Mus musculus with 6 samples.

Results

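Immediate early genes, AP-1 and EGR factors and the feedback genes that switch the MAP kinase pathways off were examined as a set of 37 named mouse genes in RAW 264.7 cells, a mouse macrophage line. All 37 were found by symbol among the 55335 mouse gene identifiers of the deposited table, and 34 reached a mean of 1 FPKM or more and were tested. They were listed by name and by what they are known for, with earlier results of these data in view. The groups were 3 libraries of wild-type (WT) cells that received lipopolysaccharide (LPS) and ultrasound and 3 libraries of WT cells that received LPS alone. LPS is a bacterial cell wall component that activates macrophages through TLR4. All 6 libraries received it at 200 ng/ml for 8 h, and cells without LPS were not analysed here. The ultrasound ran for 10 min, with an intensity of 50 mW/cm², a frequency of 1 MHz, a duty cycle of 20%, and pulses of 200 µs repeated at 1 kHz. The labels do not give the time between ultrasound and harvest, and they do not say whether a library stands for a culture of its own. The p-values are therefore set against a spread that could be purely technical. The comparison asks whether ultrasound alters the expression of these genes in LPS-stimulated cells.

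Immediate early genes are transcribed within minutes of a stimulus without new protein synthesis, because factors such as SRF, its ETS partners and CREB are already bound at their promoters and are activated by ERK, p38 and JNK signalling. Their products include the FOS and JUN proteins, which dimerise as AP-1, and the EGR zinc finger factors. Most of their mRNAs are short-lived, and the response is closed by its own products: DUSP phosphatases inactivate MAP kinases, NAB proteins restrain EGR factors, and ZFP36 proteins bind AU-rich mRNA and have it degraded. In macrophages the same genes form the first wave of the response to LPS. Hours later the first wave has usually subsided, and what remains is shaped by autocrine signals and by the feedback genes.

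Values are FPKM, fragments scaled to transcript length and to library size, so levels can be compared between genes per length. Each log2 fold change is the LPS plus ultrasound mean minus the LPS mean of log2(FPKM + 1), ± its standard error, and it comes out too small for genes of low level. Adjusted p-values are Benjamini-Hochberg values from limma over all tested genes. The libraries carried a macrophage profile: 10 of 11 macrophage markers reached a mean of 1 FPKM, with the summed level at 2682 to 2942 FPKM in the ultrasound libraries and 2621 to 2856 FPKM in the LPS libraries. Mertk, the exception, lay at a mean of 0.00272 FPKM. Of 12 skeletal muscle markers only Tnni2 passed 1 FPKM, at a mean of 28.4, and Myh1 was listed at 0. The muscle markers summed to 25.5 to 29.07 FPKM in the ultrasound libraries and 29.15 to 32.12 FPKM in the LPS libraries, and their part in the results was not tested. No fibroblast, T cell, neutrophil or endothelial marker reached 1 FPKM. On the first principal component of the tested genes, ultrasound libraries 1, 2 and 3 scored -13.9, -0.957 and -17.7, below every LPS library. LPS library 2 scored 28.8, far from LPS libraries 1 and 3 (1.73 and 2.03) and from the ultrasound libraries. It also had the highest level of LPS-induced genes: 13 LPS-induced cytokine, chemokine and effector genes summed to 1386, 2378 and 1432 FPKM in ultrasound libraries 1, 2 and 3, and to 2237, 4610 and 2230 FPKM in LPS libraries 1, 2 and 3.

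Most of the early response genes overlapped between the groups, and 6 did not. Nab1 and Srf were higher in every ultrasound library than in every LPS library, while Nr4a1, Dusp4, Atf3 and Klf2 were lower in every ultrasound library. The canonical early genes Fos, Jun, Egr1, Ier2 and Dusp1 overlapped between the groups. Of the 34 members 0 had a limma adjusted p below 0.05, and of all 11270 tested genes 2 did (0.0177%). That count was 8 without LPS library 2 and 4 without LPS library 1 or LPS library 3. At an unadjusted limma p below 0.05 the same 6 members passed, 2 higher (5.88% of 34, against 6.18% of all tested genes) and 4 lower (11.8%, against 9.16%). The separate groups stood beside 9.8% of all tested genes that were separate and higher and 13.4% that were separate and lower. For both rules the shares of the members were near the background. Leaving out a library makes separate groups easier, and without LPS library 3 their number was 13, without ultrasound library 3 it was 11 and without ultrasound library 2 it was 10. The share of all tested genes was not computed for these fits, so these counts have no background and cannot be read as a result about the members. In bulk RNA, fewer cells that express a gene and less of its RNA per cell cannot be told apart. The labels state no pairing, and libraries with the same number were taken as pairs because they deviated together from their group means. The correlation of these deviations was lowest for number 1, at 0.177. The pairing was thus chosen on these same values, so p-values with the block can come out too small. With the replicate number as a block 1 member, Nab1, passed the adjusted limma threshold, among 13 of all tested genes (0.115%). With array weights, which give less weight to more variable libraries, limma passed 4 members, Nab1 higher (0.63% of all genes) and Nr4a1, Dusp4 and Atf3 lower (1.35%).

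**Figure D1:**
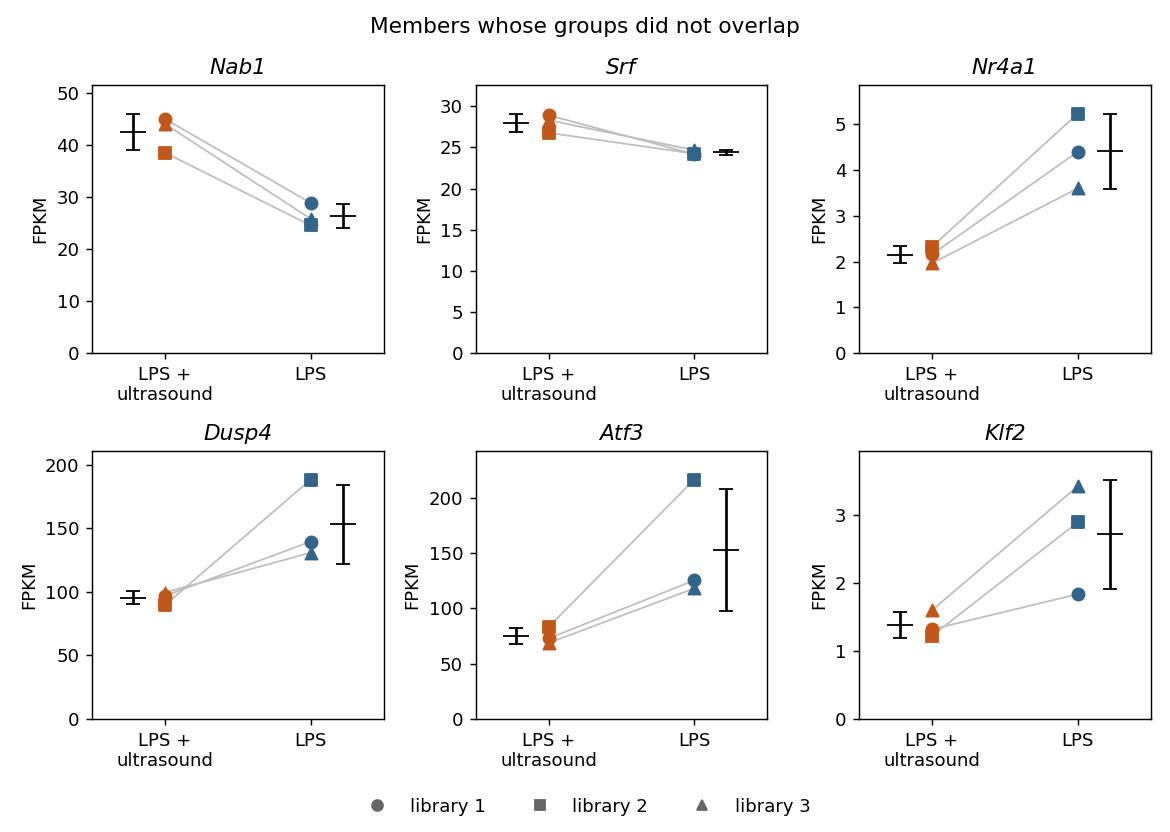
FPKM (vertical axes, linear from 0) of the 6 members whose groups did not overlap, in the LPS plus ultrasound libraries (orange, left) and the LPS libraries (blue, right). Each symbol is 1 library, grey lines join libraries with the same number, and black bars are the mean ± SD of 3 libraries; Nab1 and Srf lie higher with ultrasound and the other 4 lower.

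The median log2 fold change of the 34 tested members was -0.055, beside -0.017 over all tested genes, and 15 of them lay above 0 (44.1%, against 46.1% of all genes). Their median absolute log2 fold change was 0.18, beside 0.13 over all tested genes. Their spread within a group was larger too, with a median SD on the log2 scale of 0.23, beside 0.13. Within same-numbered pairs, 6 members were higher with ultrasound in 3 of 3 pairs (17.6%, against 24.3% of all genes) and 9 were lower in 3 of 3 pairs (26.5%, against 30.9%). With the replicate block, 5 members were higher (14.7%, against 12.6%) and 8 lower (23.5%, against 17.1%) at an unadjusted limma p below 0.05. Beyond the 6 with separate groups, these were Fosl1, Nab2 and Ier3 on the higher side and Junb, Egr1, Dusp1 and Zfp36l1 on the lower side. All of these lay on 1 side within each pair, while the pairs themselves lay at different levels.

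**Figure D2:**
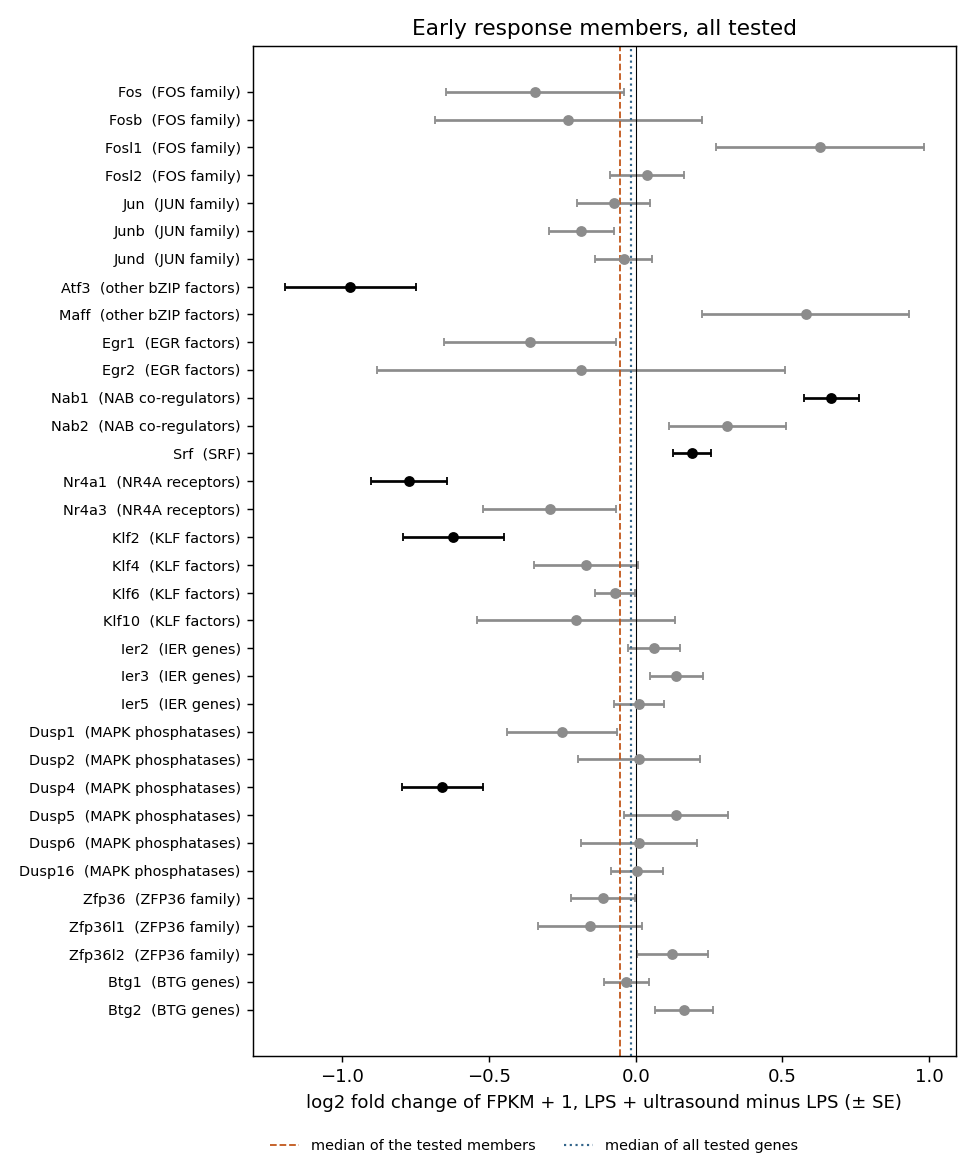
Log2 fold change of FPKM + 1, LPS plus ultrasound minus LPS, ± SE (horizontal axis) for the 34 tested members, with their roles (vertical axis). Black points had an unadjusted limma p below 0.05, the dashed line is the median of the members (-0.055) and the dotted line that of all tested genes (-0.017). Nab1 lies highest at 0.67 and Atf3 lowest at -0.97.

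Among the genes around SRF and the EGR factors, both NAB genes and Srf had higher mean values with ultrasound, and Egr1 and Egr2 lower ones. Only Nab1 and Srf had separate groups, and Nab2, Egr1 and Egr2 overlapped. Nab1 (ENSMUSG00000002881, chromosome 1) encodes a co-regulator that binds EGR proteins and represses their activity. It had 45.1, 38.6 and 44.1 FPKM in ultrasound libraries 1, 2 and 3, against 28.9, 24.6 and 25.8 FPKM in LPS libraries 1, 2 and 3. The lowest ultrasound library lay above the highest LPS library. The means were 42.6 ± 3.49 FPKM with ultrasound and 26.4 ± 2.24 FPKM with LPS alone (SD, n = 3 each), a ratio of 1.61, with a log2 fold change of 0.67 ± 0.09 (limma adjusted p = 0.128). In the fit with the replicate block Nab1 rose (limma adjusted p = 0.0474, higher in 3 of 3 pairs), and it also passed with array weights (limma adjusted p = 0.0155). Over the 18 alternatives its log2 fold change ran from 0.60 to 0.74 and its limma adjusted p from 0.0155 to 0.559. Without LPS library 2 the log2 fold change was 0.62.

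Nab2, the paralogue that EGR factors themselves induce, had 9.11, 8.44 and 11.8 FPKM in the ultrasound libraries and 6.99, 5.998 and 10.4 FPKM in the LPS libraries. The groups overlapped, but each ultrasound library lay above the LPS library of the same number. Its log2 fold change was 0.31 ± 0.20 (limma adjusted p = 0.472), 0.16 without LPS library 2 and 0.52 without LPS library 3. Nab2 shares 1050 exonic bases with the antisense transcript Gm16229 151 with Nemp1 and 40 with Stat6 on the opposite strand in GENCODE M21. Stat6 had a mean level of 64.6 FPKM, above that of Nab2, and whether strand was used in counting is not given in the sources used here. Srf (ENSMUSG00000015605, chromosome 17), the serum response factor gene, had 28.9, 26.8 and 28.3 FPKM with ultrasound and 24.2, 24.2 and 24.7 FPKM with LPS alone. The libraries of each group lay close together, and every ultrasound library was above every LPS library. The ratio of the means was 1.15, with a log2 fold change of 0.19 ± 0.07 (limma adjusted p = 0.26).

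Egr1, the most abundant EGR gene, had 87.6, 55.6 and 122.5 FPKM in the ultrasound libraries, against 100.8, 88.2 and 142.8 FPKM in the LPS libraries. The ranges overlapped widely, and within each pair the ultrasound library was lower. Its log2 fold change was -0.36 ± 0.29 (limma adjusted p = 0.571), -0.064 without ultrasound library 2 and -0.63 without ultrasound library 3. Egr2 had 4.65, 0.796 and 6.07 FPKM with ultrasound and 4.64, 1.02 and 8.30 FPKM with LPS alone. Library 2 of both groups was low, and the log2 fold change of -0.19 ± 0.70 was far smaller than its error. Without ultrasound library 2 it turned to 0.42, and without LPS library 3 to 0.30. Egr3 was below the filter, at 0.0745 ± 0.016 FPKM with ultrasound and 0.118 ± 0.0323 FPKM with LPS alone, and was not tested.

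The promoters of 5 of the 6 genes with separate groups are shown. Early response genes are classically driven by factors bound close to the start site, among them SRF. The EGR factors are products of early response genes, and their motif is marked too. Each window is 300 bases, from 250 before to 50 after the RefSeq start site on GRCm38.p6. Capitals mark matches on either strand to the EGR motif GCGNGGGCG, the SRF motif known as the CArG box, the ETS motif CCGGAAG and the TATA motif TATAAA. No mouse build is named for the deposited values, so the coordinates belong to this reference only.
Nab1, chr1:52500399-52500698, minus strand: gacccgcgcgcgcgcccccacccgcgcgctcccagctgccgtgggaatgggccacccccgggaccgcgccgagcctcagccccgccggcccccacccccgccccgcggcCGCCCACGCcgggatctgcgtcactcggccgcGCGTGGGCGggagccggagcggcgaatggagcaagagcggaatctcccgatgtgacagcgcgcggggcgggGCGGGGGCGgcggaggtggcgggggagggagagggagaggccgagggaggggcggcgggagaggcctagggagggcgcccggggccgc
Srf, chr17:46556113-46556412, minus strand: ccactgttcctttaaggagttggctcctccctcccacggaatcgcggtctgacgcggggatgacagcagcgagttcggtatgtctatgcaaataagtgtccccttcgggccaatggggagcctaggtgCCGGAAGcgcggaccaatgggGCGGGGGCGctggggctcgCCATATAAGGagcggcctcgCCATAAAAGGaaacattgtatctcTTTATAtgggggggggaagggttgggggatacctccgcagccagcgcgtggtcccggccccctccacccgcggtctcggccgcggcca
Nr4a1, chr15:101266596-101266895, plus strand: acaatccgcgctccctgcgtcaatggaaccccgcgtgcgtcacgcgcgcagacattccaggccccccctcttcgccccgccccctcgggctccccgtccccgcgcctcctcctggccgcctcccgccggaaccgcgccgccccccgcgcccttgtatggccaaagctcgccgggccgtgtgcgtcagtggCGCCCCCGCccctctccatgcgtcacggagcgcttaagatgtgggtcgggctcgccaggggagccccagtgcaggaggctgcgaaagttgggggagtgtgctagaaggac
Klf2, chr8:72318812-72319111, plus strand: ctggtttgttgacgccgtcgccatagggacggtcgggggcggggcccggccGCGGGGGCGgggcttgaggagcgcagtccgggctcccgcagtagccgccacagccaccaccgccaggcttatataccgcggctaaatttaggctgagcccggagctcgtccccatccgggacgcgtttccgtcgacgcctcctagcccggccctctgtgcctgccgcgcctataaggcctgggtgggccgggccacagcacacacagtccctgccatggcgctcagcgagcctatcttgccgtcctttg
Atf3, chr1:191183284-191183583, minus strand: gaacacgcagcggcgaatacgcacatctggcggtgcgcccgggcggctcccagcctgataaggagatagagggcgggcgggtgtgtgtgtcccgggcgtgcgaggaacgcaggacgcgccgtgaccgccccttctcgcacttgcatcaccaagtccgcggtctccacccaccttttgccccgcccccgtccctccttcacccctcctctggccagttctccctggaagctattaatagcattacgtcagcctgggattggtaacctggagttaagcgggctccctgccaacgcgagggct
The Nab1 window held 3 EGR matches, beginning 141, 109 and 38 bases before the start site. The Srf window held 2 CArG boxes, 82 and 62 bases before the start site, beside 1 EGR, 1 ETS and 1 TATA match. The windows of Nr4a1 and Klf2 held 1 EGR match each, and none of the motifs searched was in the Atf3 window.

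Promoter windows were found for 29 of the 37 members, and the members without one were Fosl1, Egr1, Egr3, Ier2, Dusp4, Myc, Klf10 and Zfp36l2. Of the 29, 13 held an EGR match (44.8%), beside 12.2% of 7946 tested genes and 6.27% of all 27025 genes with a window. The 13 were Btg2, Dusp2, Dusp16, Fosb, Fosl2, Klf2, Klf4, Maff, Nab1, Nr4a1, Nr4a2, Srf and Zfp36. Shares of tested genes follow in the same way for the other motifs. CArG boxes were in 4 members, Dusp5, Egr2, Srf and Zfp36 (13.8%, beside 1.45%). The CRE motif TGACGTCA was in 3, Btg2, Dusp1 and Maff (10.3%, beside 3.84%), and the TATA motif in 6 (20.7%, beside 8.02%). The AP-1 motif TGANTCA was in 1 member, Zfp36l1 (3.45%, beside 5.79%), and the ETS motif in 2 (6.9%, beside 22.9%). The NF-kB motif, searched in a pair of common forms, was in 0 member windows, beside 0.365% of tested genes. The EGR motif is rich in G and C, and the median GC content was 64.7% in the member windows and 60.7% in those of tested genes. The median log2 fold change was 0.008 for the 12 tested members with an EGR match and -0.072 for the 16 without one. Matches are a description of these letters and not of bound sites.

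**Figure D3:**
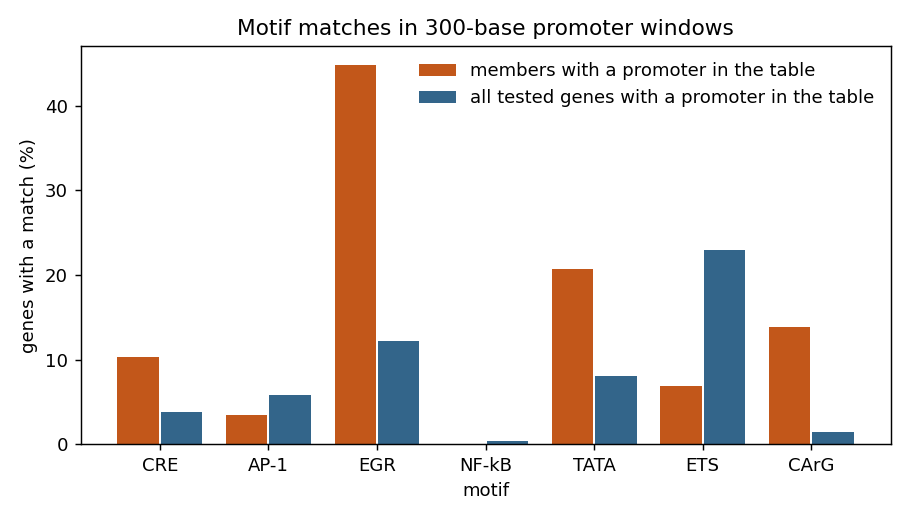
Share of genes (vertical axis, percent) with at least 1 match to each motif (horizontal axis) in 300-base promoter windows, for the 29 members with a window (orange, left bars) and for all 7946 tested genes with one (blue, right bars). EGR matches stand at 44.8% of members beside 12.2% of tested genes, and CArG boxes at 13.8% beside 1.45%.

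In the AP-1 and bZIP group, Atf3 was lower with ultrasound, and the groups overlapped for all FOS and JUN genes. Atf3 (ENSMUSG00000026628, chromosome 1) encodes a stress-induced bZIP factor that restrains cytokine transcription in LPS-stimulated macrophages. It had 72.9, 83.2 and 68.7 FPKM in ultrasound libraries 1, 2 and 3, against 125, 217 and 118 FPKM in LPS libraries 1, 2 and 3. Every ultrasound library lay below every LPS library, and LPS library 2 was by far the highest. The means were 74.9 ± 7.43 FPKM with ultrasound and 153 ± 54.9 FPKM with LPS alone (SD, n = 3 each), a ratio of 0.489, with a log2 fold change of -0.97 ± 0.22 (limma adjusted p = 0.183). Without LPS library 2 it was -0.70, and without both libraries numbered 2 it was -0.77. The summed LPS-induced genes given above were also highest in LPS library 2, and their part in the level of Atf3 was not tested.

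Maff, a small MAF factor gene, had 59.6, 41.1 and 63.3 FPKM with ultrasound and 54.1, 41.6 and 20.0 FPKM with LPS alone. LPS library 3 was far below the rest, and the other libraries overlapped. The log2 fold change of 0.58 ± 0.35 was 0.18 without LPS library 3 and 0.062 without both libraries numbered 3 (an alternative chosen after the values were seen). Fos itself was low in all libraries, with 3.13, 2.01 and 3.43 FPKM with ultrasound and 2.59, 3.00 and 6.82 FPKM with LPS alone. LPS library 3 was well above all others, and the log2 fold change of -0.34 ± 0.30 (limma adjusted p = 0.601) was 0.0052 without it. Fosb was also low, at 1.9 ± 1.16 FPKM with ultrasound and 2.52 ± 1.96 FPKM with LPS alone.

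Of the FOS family, Fosl1 and Fosl2, which encode FRA-1 and FRA-2, were the abundant members at this time. Fosl1 averaged 54.3 ± 9.99 FPKM with ultrasound and 37.2 ± 16.2 FPKM with LPS alone, with a log2 fold change of 0.63 ± 0.35 (limma adjusted p = 0.427). LPS library 2, at 18.5 FPKM, was its lowest library, and without it the log2 fold change was 0.20. The Fosl1 exons share 1163 bases with Ccdc85b on the opposite strand, a gene with a mean of 9.19 FPKM. Fosl2 had 22.8, 19.4 and 22.8 FPKM with ultrasound, against 22.3, 17.5 and 23.7 FPKM with LPS alone, and the groups overlapped (log2 fold change 0.04 ± 0.13).

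Junb and Jund were the most abundant FOS and JUN genes. Jun had 57.0, 48.7 and 57.9 FPKM in the ultrasound libraries and 53.1, 51.8 and 68.5 FPKM in the LPS libraries, with a log2 fold change of -0.08 ± 0.13. Junb, which often opposes Jun, had 225, 236 and 207 FPKM with ultrasound, against 252, 291 and 221 FPKM with LPS alone. Each ultrasound library lay below the LPS library of its number, but the groups overlapped, at a log2 fold change of -0.19 ± 0.11 (limma adjusted p = 0.445), and -0.086 without LPS library 2. Jund averaged 193 ± 20.5 FPKM with ultrasound and 198 ± 13.7 FPKM with LPS alone. By level in FPKM, Junb and Jund lay far above Fos and Fosb in every library.

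The 2 NR4A and 4 KLF genes tested had log2 fold changes below 0, and Nr4a1 and Klf2 had separate groups. Exceptions were Nr4a3 and Klf10, above 0 without both libraries numbered 2, Klf10 without LPS library 3 and Klf4 without ultrasound library 2 (0.0012). Nr4a1 (ENSMUSG00000023034, chromosome 15) encodes an orphan nuclear receptor that is induced early by LPS and limits inflammatory transcription in macrophages. It had 2.16, 2.32 and 1.96 FPKM in the ultrasound libraries, against 4.40, 5.23 and 3.60 FPKM in the LPS libraries. The ultrasound libraries lay close together and all below the LPS libraries. The means were 2.15 ± 0.181 FPKM with ultrasound and 4.41 ± 0.817 FPKM with LPS alone (SD, n = 3 each), a ratio of 0.487, with a log2 fold change of -0.77 ± 0.13 (limma adjusted p = 0.132). It was -0.66 without LPS library 2. Nr4a3 averaged 1.22 ± 0.683 FPKM with ultrasound and 1.64 ± 0.294 FPKM with LPS alone. Nr4a2 was below the filter, at 0.98 ± 0.386 FPKM with ultrasound and 0.853 ± 0.508 FPKM with LPS alone, and was not tested.

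Klf2 (ENSMUSG00000055148, chromosome 8), a zinc finger factor gene known as a brake on myeloid activation, had 1.32, 1.22 and 1.60 FPKM with ultrasound and 1.83, 2.89 and 3.42 FPKM with LPS alone. All ultrasound libraries lay below the LPS libraries, with LPS library 1 the nearest, at low levels in both groups. The ratio of the means was 0.508 and the log2 fold change -0.62 ± 0.17 (limma adjusted p = 0.218). Klf6, the most abundant KLF member, had 65.7, 60.6 and 63.3 FPKM with ultrasound, against 68.1, 67.8 and 63.2 FPKM with LPS alone (log2 fold change -0.07 ± 0.07). Klf4 averaged 2.56 ± 0.789 FPKM with ultrasound and 2.96 ± 0.466 FPKM with LPS alone. Klf10, a TGF-beta inducible factor gene, averaged 14.8 ± 1.57 FPKM with ultrasound and 18.6 ± 8.51 FPKM with LPS alone. Myc, the growth regulator gene, was below the filter, with 0.205, 0.501 and 0.189 FPKM with ultrasound and 0.293, 1.145 and 0.668 FPKM with LPS alone. Library 2 was its highest in both groups, and it was not tested.

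The IER genes had similar levels in both groups. Ier2, a nuclear protein gene that is a classical immediate early gene, had 74.9, 67.5 and 69.6 FPKM with ultrasound, against 69.5, 60.8 and 73.2 FPKM with LPS alone (log2 fold change 0.06 ± 0.09). Ier3, which modulates survival and ERK signalling, had 103, 92.4 and 98.5 FPKM with ultrasound and 99.5, 83.2 and 85.0 FPKM with LPS alone. It was higher in each pair but overlapped between groups, at a log2 fold change of 0.14 ± 0.09 (limma adjusted p = 0.483), and 0.090 without LPS library 2. Ier5, with Junb the most abundant of all members, averaged 225 ± 16.1 FPKM with ultrasound and 223 ± 16.0 FPKM with LPS alone.

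Among the 6 MAP kinase phosphatase genes, Dusp4 was the one whose groups did not overlap. Dusp4 (ENSMUSG00000031530, chromosome 8) encodes a nuclear phosphatase that is itself induced by ERK signalling. It had 96.8, 89.6 and 99.5 FPKM in ultrasound libraries 1, 2 and 3, against 140, 188 and 131 FPKM in LPS libraries 1, 2 and 3. The ultrasound libraries lay in a narrow range below all LPS libraries, and LPS library 2 was the highest. The means were 95.3 ± 5.11 FPKM with ultrasound and 153 ± 31.0 FPKM with LPS alone (SD, n = 3 each), a ratio of 0.623, with a log2 fold change of -0.66 ± 0.14 (limma adjusted p = 0.172). Without LPS library 2 it was -0.50, and without both libraries numbered 2 it was -0.46.

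Dusp1, the phosphatase of p38 and JNK that LPS induces early, had 5.75, 6.003 and 7.53 FPKM with ultrasound and 6.01, 7.49 and 10.45 FPKM with LPS alone. Each pair was lower with ultrasound, but the ranges overlapped (log2 fold change -0.25 ± 0.19, limma adjusted p = 0.535). Its log2 fold change was -0.062 without LPS library 3 and -0.42 without LPS library 1. Dusp2, a nuclear phosphatase gene of immune cells, had 18.7, 12.5 and 22.5 FPKM with ultrasound, against 14.8, 20.0 and 17.4 FPKM with LPS alone. Dusp6, the cytoplasmic ERK phosphatase gene, had 10.4, 9.58 and 12.8 FPKM with ultrasound, against 9.50, 8.66 and 14.9 FPKM with LPS alone. Both genes overlapped between the groups, with log2 fold changes of 0.01 ± 0.21 for Dusp2 and 0.01 ± 0.20 for Dusp6. The nuclear ERK phosphatase gene Dusp5 averaged 34.7 ± 7.96 FPKM with ultrasound and 31.0 ± 3.76 FPKM with LPS alone. Dusp16, whose product acts on JNK, averaged 10.2 ± 0.491 FPKM with ultrasound and 10.2 ± 0.881 FPKM with LPS alone. By level Dusp4 and Dusp5 led the group, and Dusp1 was the lowest of the 6.

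The mRNA decay genes had similar levels in both groups. Zfp36, which encodes tristetraprolin, had 51.9, 50.2 and 51.3 FPKM with ultrasound, against 65.0, 53.7 and 48.4 FPKM with LPS alone (log2 fold change -0.11 ± 0.11). The ultrasound libraries were nearly alike, and LPS library 1 was the one above them by most. Its relative Zfp36l1 averaged 19.3 ± 3.98 FPKM with ultrasound and 21.5 ± 4.0 FPKM with LPS alone. Zfp36l2 averaged 33.2 ± 4.64 FPKM with ultrasound and 30.2 ± 2.88 FPKM with LPS alone. Btg2, an antiproliferative gene whose product binds the CCR4-NOT deadenylase, had 41.9, 44.99 and 37.8 FPKM with ultrasound and 39.4, 33.1 and 38.4 FPKM with LPS alone (log2 fold change 0.16 ± 0.10). LPS library 2 was the lowest of the 6, and the log2 fold change was 0.088 without it and 0.030 without both libraries numbered 2. Btg1, its relative, averaged 80.2 ± 3.44 FPKM with ultrasound and 82.1 ± 5.64 FPKM with LPS alone. In GENCODE M21, 10 members share exonic bases with a gene on the opposite strand, among them Zfp36, Zfp36l1 and Zfp36l2, and 0 of these are among the 6 with separate groups.

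AU-rich elements, the sites that ZFP36 proteins bind, are shown for Fos, Zfp36 and Dusp1 because these mRNAs are textbook examples of rapid decay. Each line is a stretch of 29 bases around the first nonamer TTATTTATT in the annotated 3′ UTR of GENCODE M21, with the nonamer in capitals and its flanks in lower case. The search and the 3 genes were chosen after the values were seen.
Fos: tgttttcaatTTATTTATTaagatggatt
Zfp36: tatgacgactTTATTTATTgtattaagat
Dusp1: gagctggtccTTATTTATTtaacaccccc
The nonamer, searched on the transcript strand only, was in 9 of 34 tested members (26.5%), beside 8.0% of 9628 tested genes with an annotated 3′ UTR. The 9 were Fos, Fosl2, Nab2, Dusp1, Zfp36, Zfp36l1, Zfp36l2, Srf and Maff. At least 3 copies of the pentamer ATTTA were in 21 members (61.8%), beside 37.6% of those genes, at a median UTR length of 1188 and 1127 bases. The median log2 fold change was 0.039 for the 9 members with the nonamer and -0.069 for the 25 without it. Of the 6 members with separate groups only Srf held the nonamer.

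Many members varied between the libraries of a group in step with the library number. The median within-group SD on the log2 scale was 0.23 over the 34 tested members, beside 0.13 over all tested genes. Library 2 was the lowest of its group, in both groups, for 15 members (44.1%), beside 24.1% of all tested genes. Library 3 was the highest of its group, in both groups, for 13 members (38.2%), beside 15.9%. Both held for 9 members (26.5%, beside 9.85%): Fosb, Jun, Egr1, Egr2, Nab2, Dusp6, Klf4, Zfp36l1 and Zfp36l2. The LPS-induced genes ran the other way, with their highest summed level in library 2 of each group. These orders were chosen after the values were seen, and what the libraries with the same number share is not given in the labels.

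**Figure D4:**
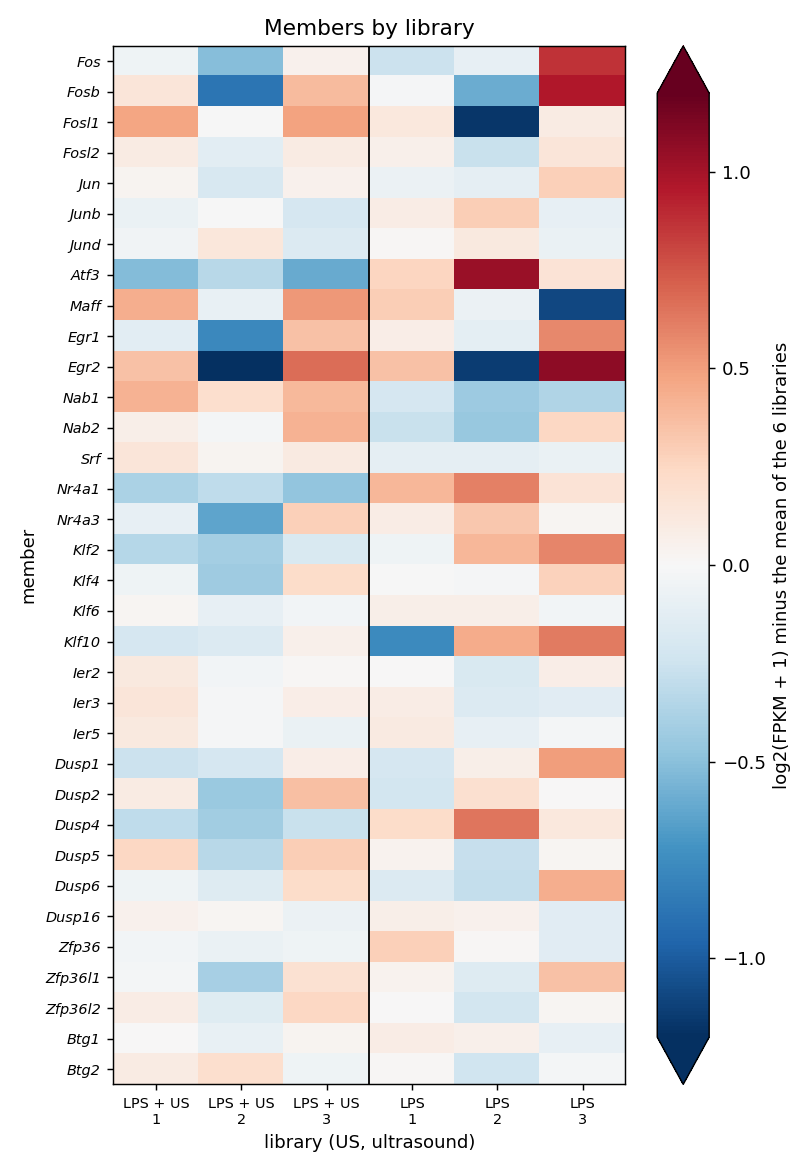
Log2(FPKM + 1) of each tested member (rows, by role) in each library (columns, LPS plus ultrasound left of the line and LPS right of it), minus its mean over the 6 libraries, with the colour scale cut at -1.2 and 1.2. Nab1 is red in all 3 ultrasound libraries and Atf3, Nr4a1, Dusp4 and Klf2 are blue there, while Egr2 and Fosb are blue in library 2 of both groups.

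**Figure D5:**
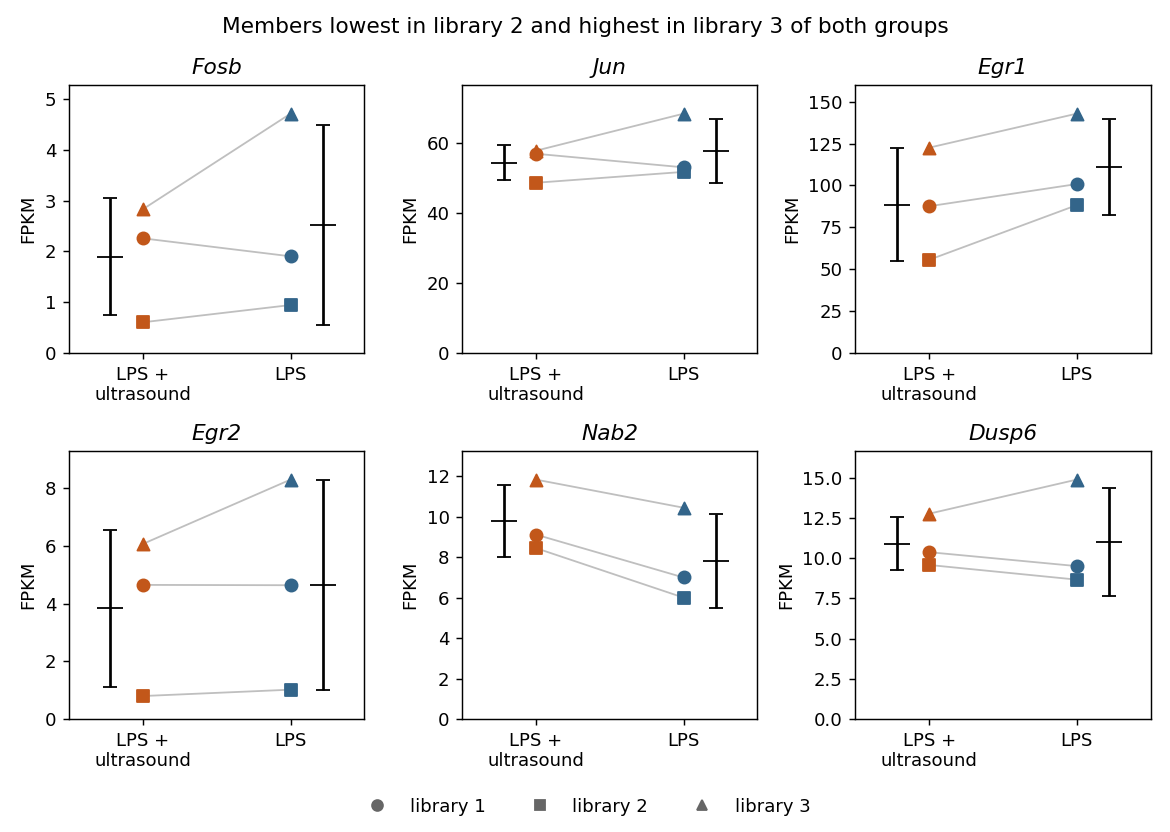
FPKM (vertical axes, linear from 0) of Fosb, Jun, Egr1, Egr2, Nab2 and Dusp6, 6 of the 9 members that were lowest in library 2 and highest in library 3 of both groups, in the LPS plus ultrasound libraries (orange, left) and the LPS libraries (blue, right). Symbols are libraries, grey lines join libraries with the same number and black bars are the mean ± SD of 3 libraries; the groups overlap in every panel.

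Genes around the set were read from 6 further lists, in which 0 genes passed the adjusted limma threshold (2 did with the replicate block, Ccl4 and Ccl5, both LPS-induced chemokine genes). The lists were chosen with earlier results known, and by the unadjusted limma rule 6.18% of all tested genes were higher and 9.16% lower, 15.3% in all. With the replicate block 29.7% of all tested genes passed in either direction, and the lists' counts with the block stand against that share. Without single libraries the share of all tested genes ran from 8.95% (without ultrasound library 1) to 16.6% (without LPS library 1). The lists' counts without a library stand against those shares. Of 33 tested genes of the MAP kinase cascades, 1 was higher and 1 lower by the unadjusted rule, and the median log2 fold change was 0.023. Their number was 1 without LPS library 3, 4 without ultrasound library 2 and 9 with the replicate block (27.3%). The lower one, Mapk3, encodes the kinase ERK1 and had 67.1, 62.6 and 59.2 FPKM with ultrasound, against 69.1, 76.9 and 77.2 FPKM with LPS alone (log2 fold change -0.24 ± 0.08). The higher one, Map3k7, encodes TAK1 and had 7.86, 15.7 and 7.83 FPKM with ultrasound and 6.73, 5.21 and 6.45 FPKM with LPS alone, with ultrasound library 2 far above the rest. Of 18 tested further feedback and phosphatase genes, 1 was higher and 1 lower, and 7 passed with the replicate block (38.9%). Dusp10, a phosphatase of p38 and JNK, had 4.001, 3.34 and 4.45 FPKM with ultrasound, against 5.29, 5.94 and 6.42 FPKM with LPS alone (log2 fold change -0.49 ± 0.12). Spred1, an inhibitor of RAS to RAF signalling, had 49.8, 48.1 and 51.5 FPKM with ultrasound and 44.96, 36.4 and 42.2 FPKM with LPS alone (0.27 ± 0.09, and 0.19 without LPS library 2).

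Of 15 tested further bZIP genes, 2 were higher and 0 lower by the same rule, and the number that passed was 1 without LPS library 2 or ultrasound library 3, 4 without ultrasound library 2 and 5 with the replicate block (33.3%). Crem, a CREB relative, had 3.43, 4.03 and 3.42 FPKM with ultrasound, against 2.75, 2.58 and 2.70 FPKM with LPS alone (log2 fold change 0.33 ± 0.09). Bach1, a heme-binding repressor gene, had 20.1, 17.7 and 20.8 FPKM with ultrasound and 17.8, 12.9 and 13.9 FPKM with LPS alone (0.38 ± 0.13, and 0.29 without LPS library 2). Of 29 further early response genes, 10 were lower (34.5%, against 9.16% of all tested genes) and 0 higher, around a median of -0.26 on the log2 scale. Without ultrasound library 1 the count was 4 (13.8%, against 8.95% of all tested genes). With the replicate block it was 17 (58.6%, against 29.7%). The 10 genes were Gadd45a, Bhlhe40, Id3, Klf11, Irf1, Rel, Gadd45g, Csrnp2, Nfil3 and Id2. The growth arrest gene Gadd45a had 52.2, 50.9 and 63.3 FPKM with ultrasound, against 72.7, 91.8 and 72.9 FPKM with LPS alone (log2 fold change -0.50 ± 0.12, and -0.39 without LPS library 2). Bhlhe40, a repressor gene of the clock and of Il10, had 16.5, 13.6 and 20.4 FPKM with ultrasound and 22.4, 31.6 and 26.3 FPKM with LPS alone (-0.64 ± 0.17, and -0.52 without LPS library 2). Several of these genes are themselves induced by LPS, and their part in the list's count was not tested.

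Of 23 genes of the CCR4-NOT complex and its decay partners, 0 passed that rule in either direction, 1 did without LPS library 1, and 5 did with the replicate block (21.7%). The smallest p in this list was that of Khsrp, which encodes a protein that binds AU-rich mRNA and had 31.7, 29.6 and 30.1 FPKM with ultrasound, against 33.5, 32.2 and 35.2 FPKM with LPS alone (log2 fold change -0.14 ± 0.07). Of the 13 LPS-induced genes, Cxcl10 was below the filter and was not tested. Of the 12 tested LPS-induced genes all had log2 fold changes below 0, with a median of -0.81. Without LPS library 2 the median was -0.44, and Acod1 lay above 0. By the unadjusted rule 3 were lower, as Ptgs2, Nfkbia and Cxcl2 had an unadjusted limma p below 0.05 (25.0% of the list). Their number was 1 without ultrasound library 1, 7 without ultrasound library 2, 6 without LPS library 1 and 12 with the replicate block. Ptgs2, the inducible cyclooxygenase gene, had 47.6, 69.9 and 52.8 FPKM with ultrasound, against 113.9, 354 and 146 FPKM with LPS alone (log2 fold change -1.67 ± 0.41, and -1.19 without LPS library 2). The chemokine gene Cxcl2 had 54.8, 76.7 and 60.8 FPKM with ultrasound, against 98.3, 193 and 82.1 FPKM with LPS alone (-0.86 ± 0.30, and -0.50 without LPS library 2). Nfkbia, the feedback inhibitor gene of NF-kB, had 189.7, 205.5 and 205.7 FPKM with ultrasound, against 309, 465 and 231 FPKM with LPS alone (log2 fold change -0.68 ± 0.23, and -0.41 without LPS library 2). These genes had lower values with ultrasound beside Atf3, Dusp4 and Nr4a1, and their part in the values of those members was not tested.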

How the data were processed

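Per the labels' protocols, mRNA was enriched with oligo(dT) beads and sequenced in paired ends from 6 RAW 264.7 libraries. The deposited values are FPKM, computed by the authors. No source used here names the aligner, the quantifier, the annotation or a mouse build. The build in the submitters' processing notes and the tissue in the extraction text are rat ones, although all 55335 identifiers are mouse ones, so the values were read as mouse macrophage data. The table holds no counts. Low values times transcript length had a commonest step that would mean 25400000 to 29200000 fragments per library, but only 34.3% to 36.5% of low values lay within 0.1 of a multiple of it, so no counts were recovered and no counting interval is given. FPKM sums were 278871 to 292200 per library. An exact 0 can be a failed estimate, as 10 genes at 0 in one library exceeded 5 FPKM in another.

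Columns were matched to titles by initial and number, and 55154 identifiers had a symbol in GENCODE M21. A mean of 1 FPKM or more was required, which kept 11270 genes and left out 44065. The groups were compared on log2(FPKM + 1) by limma 3.58.1 (R 4.3.3; variance trend, robust moderation, two-sided), adjusted by Benjamini-Hochberg over all tested genes, at a threshold of 0.05. The procedure was tested on simulated data with the means and within-group spread of the tested genes, drawn independently for each gene. At an adjusted limma p below 0.05 it recovered 42% of 1.5-fold changes, 76% of 2-fold, 90% of 3-fold and 92% of 4-fold changes. In that simulation 50 genes were changed at each fold at once, which loosens the Benjamini-Hochberg cut. In the data only 2 genes passed, so these rates are likely too high for the data. Changes of 1.5-fold to 2-fold, and some larger ones, can therefore be missed. Same-numbered libraries deviated together from their group means, at correlations across genes of 0.177, 0.442 and 0.409. The numbers in the titles were therefore taken to pair them, a choice made on the same values that were then tested. The fit without the block stayed the main one. Promoters came from RefSeq on GRCm38.p6, and untranslated regions from the longest one per gene in GENCODE M21.

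The members and lists were chosen with earlier results of these data known. Library values are given for members with an unadjusted p below 0.05 or separate groups and for 21 members that stand for their roles. They are also given for Maff, which lies outside these rules, and for some of the 3 genes with the smallest p of each further list. Alternatives were the pseudocount, filter, scaling, moderation, weights, block and left-out libraries; leaving out both libraries numbered 3, the AU-rich search and the library orders were added after the data were seen. Figures were drawn with matplotlib 3.10.9.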

Additional observations from a re-analysis of the deposited data

How the results depend on the processing

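Of 605 member values under 18 alternatives, 556 kept their direction and their side of the threshold, 5 passed it and 44 turned in direction. The 5 were Nab1 with the replicate block, and Nab1, Nr4a1, Dusp4 and Atf3 with array weights. The 6 members with separate groups kept their direction under every alternative in which they were tested; a filter at 5 FPKM left out Nr4a1 and Klf2, and log2 fold changes of these low genes depend on the pseudocount, from -0.99 to -0.39 for Nr4a1 and from -0.89 to -0.27 for Klf2. The members past the threshold numbered 0, but 1 with the replicate block and 4 with array weights, and 0 without any single library. Over all genes the count of 2 became 13 with the replicate block, 223 with array weights, 5 with libraries scaled to the same sum, 1 with the filter at 5 FPKM, 6 without both libraries numbered 2 and 5 without both numbered 3, and ran from 2 to 8 without single libraries. Members at an unadjusted limma p below 0.05 numbered 6, but 13 with the replicate block and ran from 5 to 8 without single libraries. The share of all tested genes by that rule was 15.3%, 29.7% with the replicate block and 8.95% to 16.6% without single libraries. The median log2 fold change of the members ran from -0.106 to 0.011 over the alternatives. Members with separate groups numbered 6, from 6 to 13 without single libraries, 11 without both libraries numbered 2 and 18 without both numbered 3, where fewer libraries make separation easier. The share of all tested genes with separate groups was not computed without these libraries, so these counts have no background. At the adjusted threshold the replicate block changed the call of no member but Nab1. The cause of the other changes was not tested.

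17 members turned in direction under at least 1 alternative. Without single libraries the log2 fold changes ran from -0.56 to 0.0052 for Fos, -0.58 to 0.19 for Fosb, -0.087 to 0.12 for Fosl2, -0.15 to 0.051 for Jun, -0.12 to 0.031 for Jund, -0.80 to 0.42 for Egr2, -0.014 to 0.12 for Ier2 and -0.045 to 0.066 for Ier5. They ran from -0.16 to 0.24 for Dusp2, -0.13 to 0.23 for Dusp6, -0.062 to 0.043 for Dusp16, -0.32 to 0.0012 for Klf4, -0.63 to 0.057 for Klf10, -0.21 to 0.0024 for Zfp36, -0.29 to 0.0026 for Zfp36l1 and -0.089 to 0.0034 for Btg1. With no turn without single libraries, they ran from 0.20 to 0.85 for Fosl1, 0.18 to 0.87 for Maff, 0.027 to 0.34 for Dusp5, 0.033 to 0.23 for Zfp36l2, -0.51 to -0.053 for Nr4a3 and -0.104 to -0.039 for Klf6. Without both libraries numbered 2, Fosl2 turned to -0.012, Ier5 to -0.024, Nr4a3 to 0.036, Dusp6 to -0.046, Klf10 to 0.0011 and Btg1 to 0.026. Without both numbered 3, Jun turned to 0.0063, Dusp2 to -0.16 and Dusp16 to -0.026. Scaling to the same sum turned Ier5 to -0.011, Dusp2 to -0.0084, Dusp6 to -0.0066 and Dusp16 to -0.0145, quantile normalization turned Jund to 0.023, and array weights turned Dusp6 to -0.049. The depth of the libraries is not known, so low members such as Egr3, Myc and Nr4a2 carry an unknown counting error.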
